A study of Mus musculus with 12 samples.

Results

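The genes described here are those of 6 named families of the splicing machinery and of heterogeneous nuclear ribonucleoproteins (hnRNPs), taken as every gene whose symbol starts with Srsf, Snrp, Sf3a, Sf3b, Hnrnp or Prpf and that was listed in at least 1 of 12 libraries of mouse bone marrow-derived macrophages. The rule found 65 of 16145 listed genes, namely 21 Hnrnp, 13 Prpf, 11 Srsf, 11 Snrp, 6 Sf3b and 3 Sf3a genes. All cells were grown from mouse bone marrow with macrophage colony stimulating factor for 7 days, and each of 4 groups held 3 libraries. Wild-type cells received vehicle for 12 h, 4-octyl itaconate (4-OI, a cell-permeable itaconate ester) at 120 µM for 15 h, or hemin (the iron(III) chloride form of heme) at 15 µM for 12 h. The fourth group was labelled Irg1KO and received vehicle for 12 h; Irg1 (Acod1) codes for the mitochondrial decarboxylase that produces itaconate. The 4-OI cells were thus harvested at another time than the rest, so 4-OI and the added hours cannot be told apart. The deleted part of Irg1 is not given in the sources used here. Nor is it given whether a group's 3 libraries stem from different mice or wells, so p-values measure the spread between these libraries, which may be technical.

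Splicing removes introns from precursor mRNA in a spliceosome built from small nuclear ribonucleoproteins (snRNPs). Each snRNP of the U1, U2, U4 and U5 type carries a ring of Sm proteins, the SF3a and SF3b complexes hold U2 at the branch site, and PRPF proteins work mainly in the tri-snRNP and at the catalytic core. SR proteins bind exons and mostly favour their inclusion, whereas many hnRNPs bind exons or introns and often repress it, and several genes of both kinds tune their own level through exons that send the transcript to decay. In macrophages, RNA-binding proteins of these families also act on the splicing and stability of inflammatory transcripts.

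Upstream sequences are shown for 3 members that were lower and for 1 that was higher than in wild-type vehicle, as examples of both directions. They are not the genes of largest change, but the first in order of fold change, among those called in a comparison, for which 150 bases or more before the RefSeq start lay in no annotated exon. Windows on 1 chromosome were left out before this choice, whatever the fold change of their genes. Capitals mark matches, on either strand, to the CCAAT box (CCAAT) or to the core of the antioxidant response element (TGACNNNGC). All 4 come from RefSeq on GRCm38.p6, are written in the direction of transcription, and lie at chr2:75659009-75659243 (plus strand) for Hnrnpa3, chr6:51469895-51470144 (minus strand) for Hnrnpa2b1, chr11:116853095-116853294 (minus strand) for Srsf2 and chr8:110846813-110847023 (minus strand) for Sf3b3.
Hnrnpa3: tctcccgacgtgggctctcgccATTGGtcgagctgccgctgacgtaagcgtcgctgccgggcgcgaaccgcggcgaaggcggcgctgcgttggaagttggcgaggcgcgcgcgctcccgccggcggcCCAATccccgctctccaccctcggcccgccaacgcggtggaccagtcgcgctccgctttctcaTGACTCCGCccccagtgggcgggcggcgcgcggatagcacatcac
Hnrnpa2b1: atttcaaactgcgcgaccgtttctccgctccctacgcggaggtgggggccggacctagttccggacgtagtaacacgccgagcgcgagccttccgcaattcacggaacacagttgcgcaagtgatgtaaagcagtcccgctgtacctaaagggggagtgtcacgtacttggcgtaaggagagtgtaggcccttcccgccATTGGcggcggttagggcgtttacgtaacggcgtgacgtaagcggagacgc
Srsf2: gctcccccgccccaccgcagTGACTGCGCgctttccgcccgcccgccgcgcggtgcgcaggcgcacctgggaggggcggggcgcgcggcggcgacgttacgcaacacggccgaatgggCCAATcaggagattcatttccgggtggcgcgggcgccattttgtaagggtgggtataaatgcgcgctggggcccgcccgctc
Sf3b3: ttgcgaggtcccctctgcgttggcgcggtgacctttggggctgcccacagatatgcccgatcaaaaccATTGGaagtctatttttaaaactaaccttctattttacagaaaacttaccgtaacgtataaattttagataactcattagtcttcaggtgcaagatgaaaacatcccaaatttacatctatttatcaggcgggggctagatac

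Among the members, 57 matched a RefSeq promoter entry, with 74 windows of 250 bases before a start. A CCAAT box stood in 35 of these windows (47.3%) and in 33.8% of the 32851 windows of all genes. The ETS-type motif CCGGAAG stood in 22 member windows (29.7%) against 6.91% of all windows. The antioxidant response element core stood in 10 (13.5% against 10.2%), the E-box CACGTG in 8 (10.8% against 6.02%) and the cAMP response element TGACGTCA in 2 (2.70% against 1.55%). Both strands were searched, and TGACNNNGC and TGACGTCA share their first 4 letters, although they cannot both match from the same base on 1 strand. Windows were counted and not genes, so a gene with several starts counted more than once. The windows of all genes were not limited to genes tested in these cells, nor matched to the members by level. A match describes the letters only, and no binding was measured.

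The libraries held 9405112 to 22390882 expected read counts each, and the members took 1.16 to 1.19% of them in wild-type vehicle, 0.910 to 0.934% with 4-OI, 1.05 to 1.07% with hemin and 0.998 to 1.00% in Irg1KO. No group overlapped another in that share, which was taken on counts before any TMM factor. After scaling to library size with TMM factors, the members' counts summed to 9591 to 9886 with 4-OI and 9806 to 9865 in Irg1KO. The 4-OI and Irg1KO groups thus overlapped on that scale, and both lay below hemin (10508 to 10786) and vehicle (11163 to 11378). The log2 ratio of 4-OI to vehicle was −0.21 after scaling and −0.34 for the share. Of the 65 members, 63 passed the filter on low counts. Srsf12 had 1 count in 1 Irg1KO library, and the pseudogene Hnrnpa1l2-ps2 had 1 count in each of 2 vehicle libraries. The 63 were measured tightly, with a median coefficient of variation within groups of 3.07 to 4.93%, against 5.67 to 6.86% for all genes tested. Members and all genes were not matched by level. The part of read depth in this gap, and in the shares called below, was not tested. The widest in wild-type vehicle was Snrpf, at 29.0%. Acod1 reads did not separate the genotypes, with 25.01 to 30.48 counts scaled to library size (CPM, with TMM factors) in wild-type vehicle and 13.6 to 26.3 CPM in the libraries labelled Irg1KO, so the groups are named by their labels. Macrophage markers summed to 22276 to 27265 CPM in every group. In this bulk RNA, fewer cells of a type and less RNA per cell cannot be told apart.

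With 4-OI, 33 of the 63 tested members fell and 5 rose relative to wild-type vehicle (edgeR quasi-likelihood test, Benjamini-Hochberg adjusted p under 0.05), while 25.0% of the 12148 genes tested fell and 25.4% rose. The median log2 difference was −0.17 over the members and −0.003 over all genes. On log2(FPKM + 1), 48 members and 37.9% of all genes were lower with 4-OI, and 0 members and 14.3% of all genes were higher. With hemin, 16 members fell and 2 rose, against 7.74% and 9.48% of all genes, with a median of −0.08. On log2(FPKM + 1) hemin gave 23 lower and 0 higher, against 11.7% and 5.11%. In Irg1KO, 29 members fell and 0 rose, against 16.3% and 23.5% of all genes, with a median of −0.11. At an unadjusted p under 0.05, edgeR put 35 members lower and 0 higher in Irg1KO (2536 and 3197 of all 12148 genes), and DESeq2 also called 0 higher. The 3 comparisons share the vehicle libraries, so their values are set side by side only. The changes were small, from −0.78 to 0.29 on the log2 scale over the members called.

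**Figure D1:**
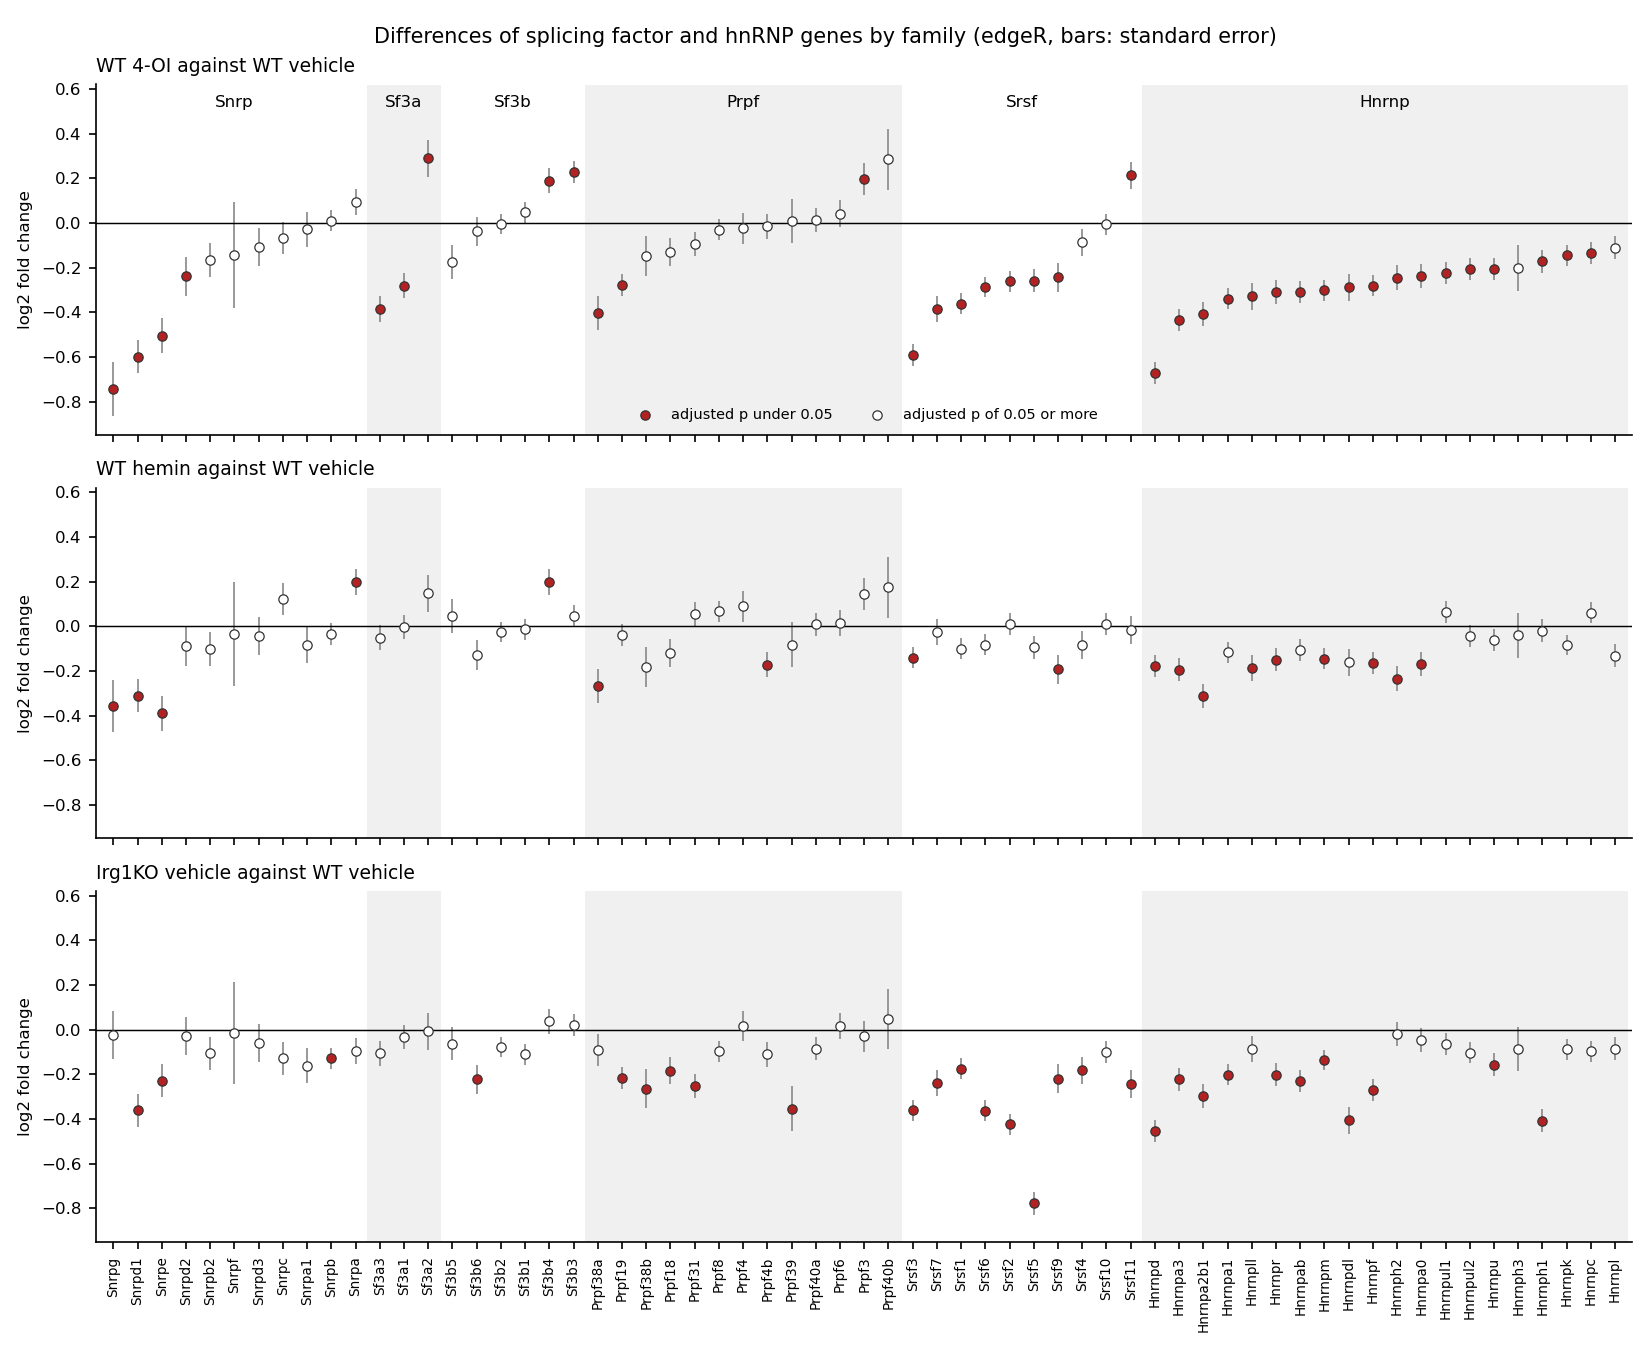
Log2 fold change (y axis) of each of the 63 tested members (x axis, by family and by the 4-OI value) against wild-type vehicle, with standard errors; filled points have an adjusted p under 0.05. The Hnrnp points all lie below 0 with 4-OI, the Srsf points all lie below 0 in Irg1KO with Srsf5 lowest at −0.78, and the called Sf3b points lie between −0.22 and 0.23.

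**Figure D2:**
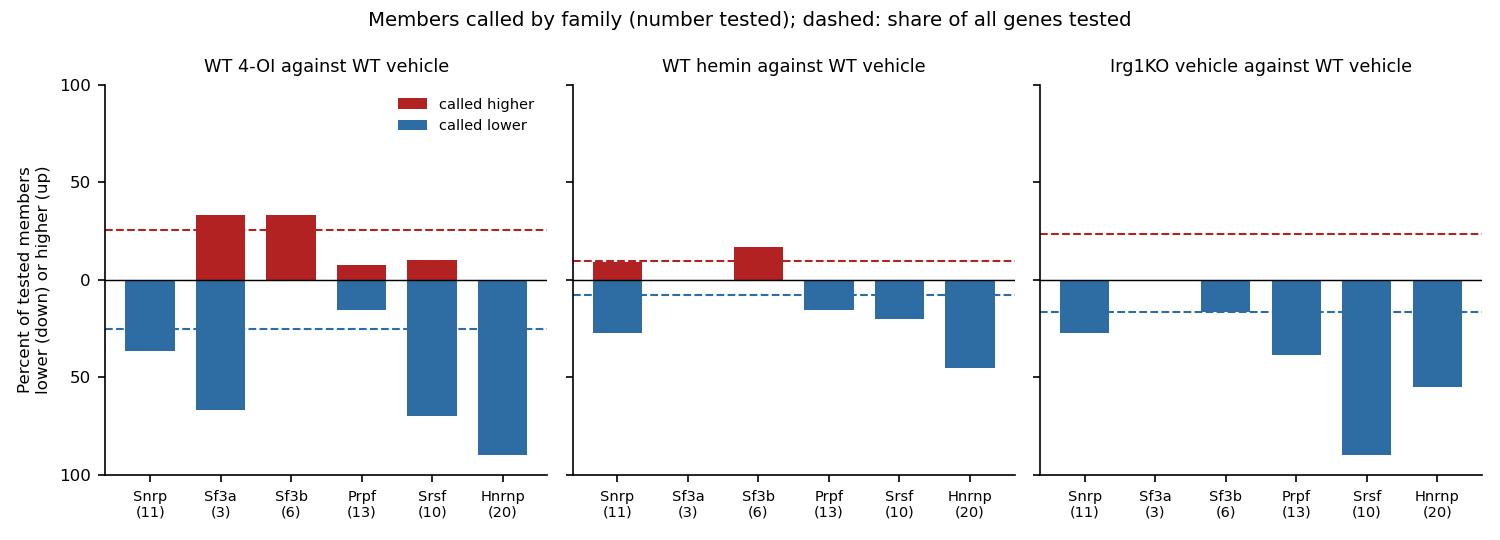
Percent of the tested members of each family (number in brackets) called higher (upward bars) or lower (downward bars) than wild-type vehicle; dashed lines give the same share of all 12148 genes tested. Lower calls were most frequent in Hnrnp with 4-OI (18 of 20) and in Srsf in Irg1KO (9 of 10).

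On the Sm and snRNP side, the largest decreases lay in a few ring proteins. Of 11 Snrp genes, 4 fell with 4-OI, against 25.0% of all genes, and 3 fell in Irg1KO, against 16.3%. With hemin 3 fell and 1 rose, against 7.74% and 9.48%, so the rise was close to the share of all genes. Snrpg, which encodes the Sm ring protein SmG, stood at 24.7, 19.7 and 24.9 CPM in wild-type vehicle, at 17.0, 11.2 and 12.8 CPM with 4-OI, at 17.9, 15.9 and 19.6 CPM with hemin and at 22.85, 22.03 and 22.58 CPM in Irg1KO. The 4-OI and hemin libraries all lay below the vehicle range, and the Irg1KO libraries lay inside it. The difference was −0.74 (SE 0.12, edgeR adjusted p = 9.7e-06) with 4-OI and −0.36 (SE 0.12, edgeR adjusted p = 0.032) with hemin. Leaving out vehicle library 1 or 3, or hemin library 1 or 2, ended the hemin call.

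Snrpd1 (SmD1) was at 58.2, 57.5 and 54.9 CPM in vehicle, 42.8, 36.3 and 33.2 CPM with 4-OI, 47.1, 44.9 and 46.0 CPM with hemin and 49.4, 43.1 and 40.5 CPM in Irg1KO. Every library of the other groups was below every vehicle library, with differences of −0.60 (SE 0.08), −0.31 (SE 0.07) and −0.36 (SE 0.07) and edgeR adjusted p of 2.5e-08, 0.0024 and 0.00010. Snrpe (SmE) was at 37.3, 35.0 and 35.2 CPM in vehicle and at 25.7, 25.6 and 24.3 CPM with 4-OI. With hemin it was at 28.1, 25.5 and 28.5 CPM and in Irg1KO at 27.3, 30.7 and 34.0 CPM. It fell by 0.51 (log2, SE 0.08), 0.39 (SE 0.08) and 0.23 (SE 0.08), and the Irg1KO call ended without vehicle library 1 or Irg1KO library 1.

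The remaining Snrp genes moved less. Snrpd2 (SmD2) had the fourth 4-OI decrease, at −0.24 (SE 0.09), with groups that overlapped and a call that ended without 4-OI library 2 or 3 or vehicle library 1 or 2. Snrpb, the Sm protein of highest FPKM (fragments per kilobase of transcript and library size, the scale on which genes are compared; 137 ± 1.57, SD, n = 3, in vehicle), fell by 0.13 (log2, SE 0.05, edgeR adjusted p = 0.030) in Irg1KO. That call ended without vehicle library 1 or Irg1KO library 1. With 4-OI, Snrpb was at 136.4, 130.3 and 129.9 CPM against 133.0, 130.3 and 130.7 CPM in vehicle and was not called. Snrpa, the U1-specific A protein, rose by 0.20 (log2, SE 0.06, edgeR adjusted p = 0.014) with hemin, from 61.3, 62.3 and 65.3 CPM to 70.6, 75.3 and 70.5 CPM. The Snrpa rise was not called on FPKM, nor without vehicle library 1 or hemin library 2.

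**Figure D3:**
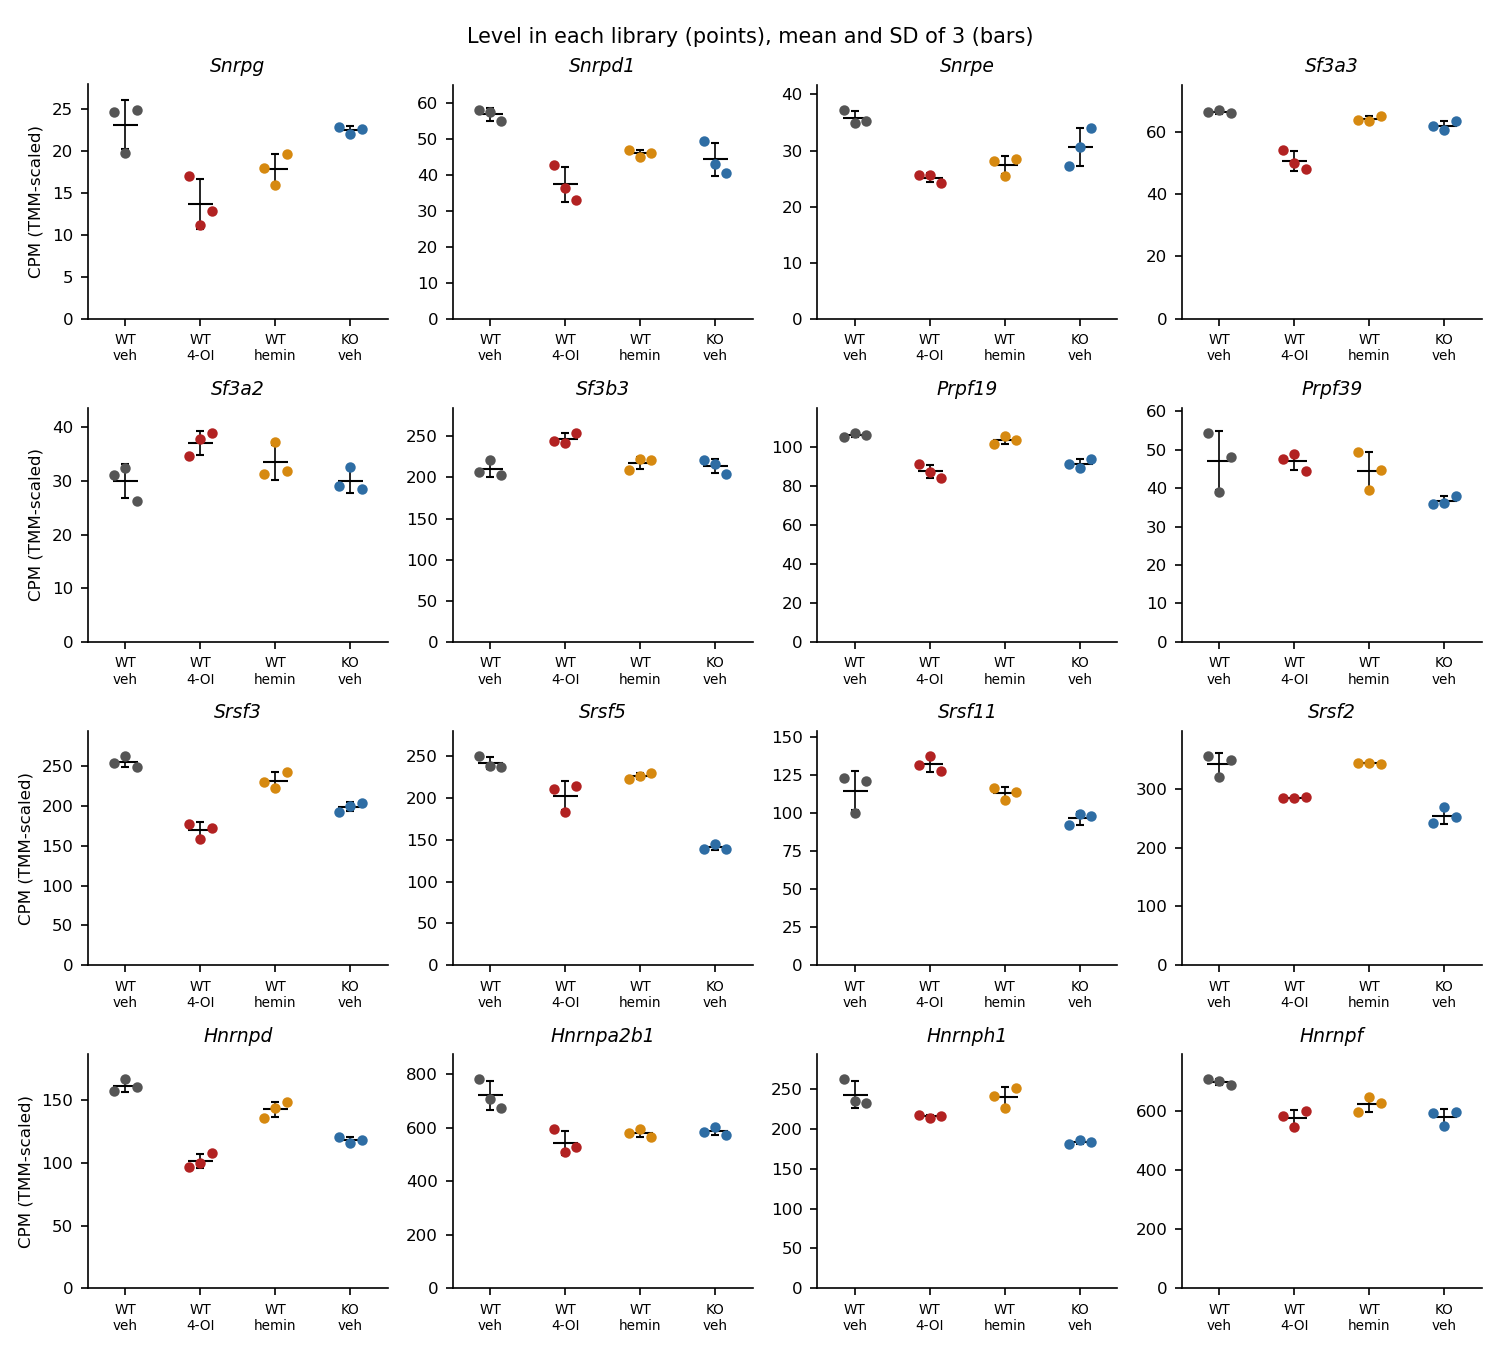
TMM-scaled CPM (y axis, from 0) of 16 named members in each library (points) of the 4 groups, with the mean and SD of 3 libraries (bars). Hnrnpd and Srsf3 are lowest with 4-OI, Srsf5 and Hnrnph1 are lowest in Irg1KO, and Sf3b3 and Srsf11 are highest with 4-OI.

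In the U2 branch-site complexes, subunits moved in both directions with 4-OI. Of the 3 Sf3a genes, Sf3a3 and Sf3a1 fell and Sf3a2 rose, while 25.0% of all genes fell and 25.4% rose. Sf3a3 was at 66.2, 67.1 and 65.9 CPM in vehicle and 54.16, 50.02 and 47.87 CPM with 4-OI, with hemin at 63.7, 63.5 and 65.1 CPM and Irg1KO at 61.7, 60.4 and 63.3 CPM. The 4-OI difference was −0.39 (SE 0.06, edgeR adjusted p = 7.1e-07). Sf3a1 differed by −0.28 (SE 0.06, edgeR adjusted p = 6.2e-05), from 90.9, 104.0 and 103.5 CPM to 79.4, 81.0 and 85.5 CPM. Sf3a2 rose from 31.1, 32.5 and 26.3 CPM to 34.6, 37.7 and 39.0 CPM, by 0.29 (log2, SE 0.08, edgeR adjusted p = 0.0033).

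Of the 6 Sf3b genes, 2 rose and 0 fell with 4-OI, against 25.4% and 25.0% of all genes, so the rises were near that share. Sf3b3, a scaffold subunit of SF3b, was at 206.4, 221.6 and 203.2 CPM in vehicle and 244.9, 241.4 and 254.3 CPM with 4-OI, a rise of 0.23 (log2, SE 0.05, edgeR adjusted p = 0.00014) with no overlap. Sf3b4 rose by 0.19 (log2, SE 0.06) with 4-OI and by 0.20 (SE 0.06, edgeR adjusted p = 0.014) with hemin. The 4-OI rise of Sf3b4 ended without vehicle library 3, and its hemin rise without that library or hemin library 2. None of the rises with 4-OI in Sf3a2, Sf3b3 and Sf3b4 was called on log2 FPKM, and on that scale their values were still above 0. Sf3b6, which touches the branch point, was the 1 Sf3b gene lower in Irg1KO, at −0.22 (SE 0.07, edgeR adjusted p = 0.0062). In Irg1KO 16.3% of all genes were lower, a share close to 1 of 6. Sf3b1, the largest subunit and a frequent site of mutation in blood cancers, stood at 366.2, 384.0 and 398.8 CPM in vehicle, 392.98, 401.16 and 391.97 CPM with 4-OI, 394.7, 369.7 and 374.2 CPM with hemin and 359.9, 339.8 and 364.1 CPM in Irg1KO, and was called in none of the 3 comparisons. Its largest difference was −0.11 (SE 0.05, edgeR adjusted p = 0.056), in Irg1KO. That value was called lower under 9 of 16 alternatives, among them RLE and upper-quartile factors, DESeq2 and FPKM, with an adjusted p down to 0.0083. The most abundant Sf3b gene by FPKM, Sf3b2, was at 243.6, 251.8 and 255.8 CPM with 4-OI against 243.3, 253.8 and 255.8 CPM in vehicle.

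**Figure D4:**
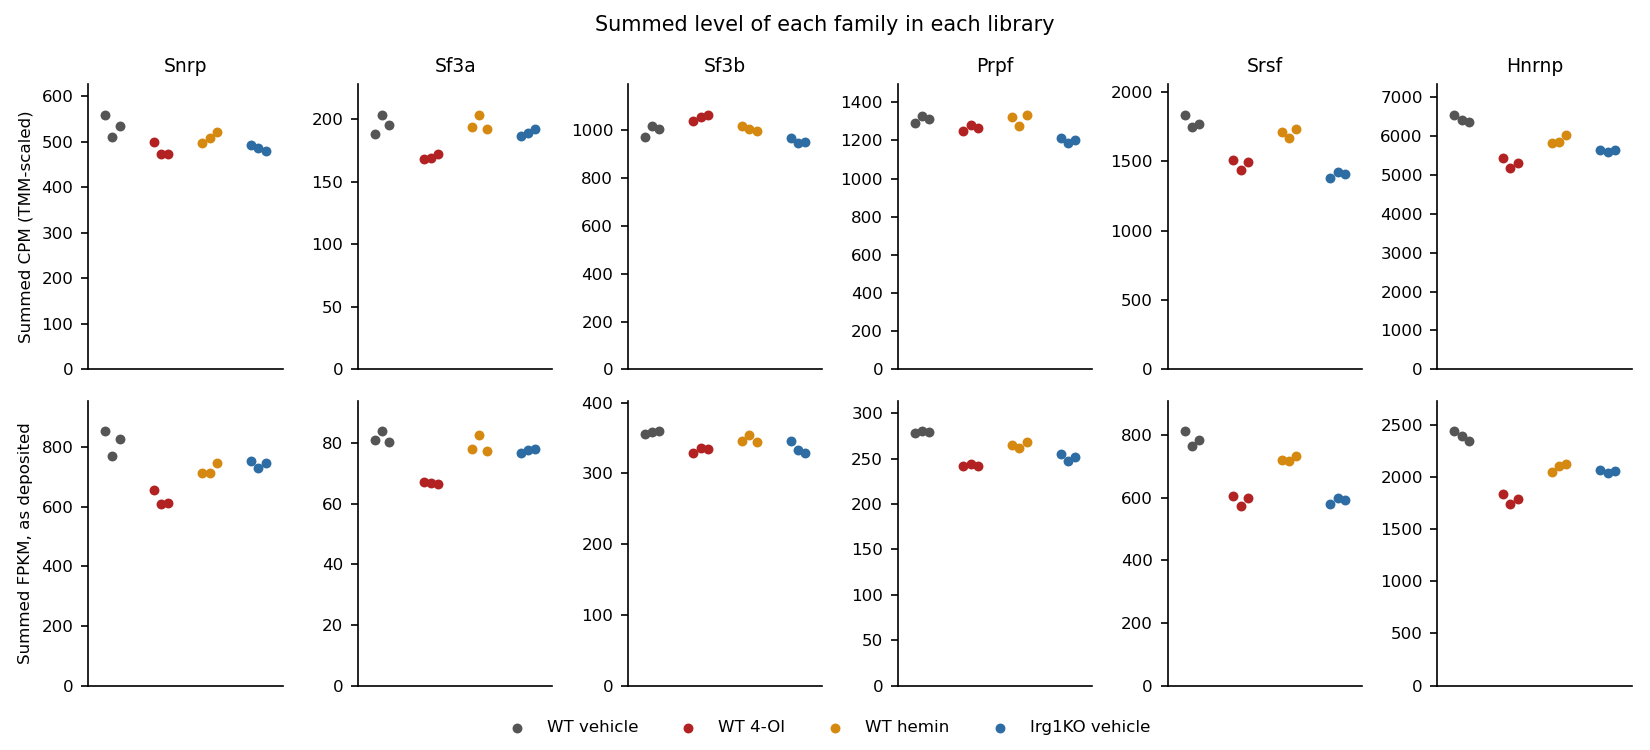
Summed level of the members of each family in each library, as TMM-scaled CPM (upper row) and deposited FPKM (lower row), y axes from 0. The Hnrnp and Srsf sums are lowest with 4-OI and in Irg1KO on both scales, while the Sf3b sum with 4-OI is above vehicle in CPM (1052 against 998 on average) and below it in FPKM (333 against 358).

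The scale mattered for the SF3b complex. Its summed CPM was 0.08 higher (log2) with 4-OI than in vehicle and its summed FPKM differed by −0.10. On log2(FPKM + 1) the median of all genes shifted by −0.11 with 4-OI and that of the members by −0.31, so the members lay 0.20 below all genes there, against 0.17 in CPM.

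Of the 13 Prpf genes, 2 fell and 1 rose with 4-OI, both below the shares of all genes (25.0% and 25.4%). With hemin 2 fell, against 7.74% of all genes, and in Irg1KO 5 fell, against 16.3%. The counts were not tested against each other. Prpf38a, needed to activate the assembled spliceosome, was at 29.1, 29.0 and 30.1 CPM in vehicle, 23.24, 21.28 and 22.00 CPM with 4-OI, 23.3, 24.2 and 25.5 CPM with hemin and 27.6, 26.5 and 28.7 CPM in Irg1KO. The 4-OI and hemin differences were −0.40 (SE 0.08, edgeR adjusted p = 3.0e-05) and −0.27 (SE 0.08, edgeR adjusted p = 0.011). Prpf19, the ubiquitin ligase of the Prp19 complex, fell by 0.28 (log2, SE 0.05) with 4-OI and by 0.22 (SE 0.05) in Irg1KO. Prpf3, a U4/U6 protein, rose by 0.20 (log2, SE 0.07, edgeR adjusted p = 0.020) with 4-OI, a call that ended on FPKM, with upper-quartile factors, and without 4-OI library 3 or vehicle library 3. Prpf4b, a kinase of the tri-snRNP, fell by 0.17 (log2, SE 0.06, edgeR adjusted p = 0.034) with hemin with overlapping groups. That call ended on FPKM, with only the groups compared fitted, and without vehicle library 1 or 3 or hemin library 2 or 3.

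In Irg1KO the lowest Prpf gene was Prpf39, a U1-associated factor, at 54.4, 39.1 and 48.1 CPM in vehicle and 36.0, 36.1 and 38.1 CPM in Irg1KO, a difference of −0.35 (SE 0.10, edgeR adjusted p = 0.0089) that was not called on FPKM. Prpf31, which holds U4/U6 together with U5, differed by −0.25 (SE 0.05, edgeR adjusted p = 0.00022). Prpf38b differed by −0.26 (SE 0.09, edgeR adjusted p = 0.022) with overlapping groups, and its call ended on FPKM and without any of 4 libraries (vehicle 1 or 3, Irg1KO 2 or 3). Prpf8, the catalytic centre protein of U5 and the Prpf gene of highest FPKM (64.5 ± 2.96, SD, n = 3, in vehicle), was at 441.1, 490.1 and 467.9 CPM in vehicle, 434.1, 476.6 and 459.6 CPM with 4-OI, 490.3, 478.8 and 497.0 CPM with hemin and 440.8, 434.0 and 433.4 CPM in Irg1KO. It was called by edgeR in none of the 3 comparisons.

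Most SR protein genes tested were lower with 4-OI and in Irg1KO. Of the 10 tested, 7 fell and 1 rose with 4-OI, against 25.0% and 25.4% of all genes. With hemin 2 fell, against 7.74%, and in Irg1KO 9 fell, against 16.3%. All 10 had each Irg1KO library below each vehicle library, as did 22.4% of all genes. Srsf3, the smallest SR protein, was at 254.2, 262.8 and 249.5 CPM in vehicle, 178.0, 159.1 and 171.8 CPM with 4-OI, 230.2, 222.6 and 243.2 CPM with hemin and 192.99, 199.96 and 204.12 CPM in Irg1KO. Its differences were −0.59 (SE 0.05, edgeR adjusted p = 8.3e-13) with 4-OI and −0.36 (SE 0.05, edgeR adjusted p = 1.0e-07) in Irg1KO. The hemin difference of −0.14 (SE 0.05, edgeR adjusted p = 0.042) was no longer called with no filter, with only the groups compared fitted, or without any 1 of the 3 vehicle libraries or of hemin libraries 1 and 2; its value ranged from −0.20 to −0.11 over all alternatives.

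Srsf5 had the largest change of any member in Irg1KO. It was at 250.5, 239.1 and 236.9 CPM in vehicle, 210.9, 183.2 and 214.7 CPM with 4-OI, 223.2, 227.0 and 230.3 CPM with hemin and 139.7, 145.2 and 138.7 CPM in Irg1KO. The Irg1KO value was −0.78 (SE 0.05, edgeR adjusted p = 1.8e-15) and the 4-OI value −0.26 (SE 0.05, edgeR adjusted p = 5.2e-05); these were not tested against each other. Its expected counts were whole in 1 of 12 libraries, so its reads may be shared with another gene. Srsf2 (SC35), the SR gene of highest FPKM in vehicle (184 ± 10.6, SD, n = 3), was at 356.3, 320.0 and 349.8 CPM in vehicle, 284.1, 284.3 and 286.9 CPM with 4-OI, 343.8, 344.8 and 343.6 CPM with hemin and 242.4, 269.2 and 252.2 CPM in Irg1KO. It differed by −0.26 (SE 0.05) with 4-OI and −0.42 (SE 0.05) in Irg1KO, and was not called with hemin, where it lay inside the vehicle range.

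Srsf7 and Srsf1 differed by −0.39 (SE 0.06) and −0.36 (SE 0.05) with 4-OI, and Srsf6 by −0.36 (SE 0.05) in Irg1KO. Srsf9 was the lowest SR gene with hemin, at −0.19 (SE 0.07, edgeR adjusted p = 0.037), a call lost without vehicle library 1 or 3 and without any 1 of the hemin libraries. Srsf11, an SR-related protein, was the 1 Srsf gene that rose with 4-OI. It was at 122.9, 99.6 and 120.9 CPM in vehicle, 131.3, 137.2 and 127.2 CPM with 4-OI, 116.3, 108.2 and 113.9 CPM with hemin and 91.7, 99.3 and 97.8 CPM in Irg1KO. The rise with 4-OI was 0.21 (log2, SE 0.06, edgeR adjusted p = 0.0041), not called on FPKM nor without vehicle library 2, and Irg1KO was at −0.24 (SE 0.06, edgeR adjusted p = 0.0019). Srsf10 was the 1 SR gene not called in Irg1KO, at −0.10 (SE 0.05, edgeR adjusted p = 0.098), although it was called lower with RLE factors, DESeq2 and on FPKM.

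The hnRNP genes made up most of the members' reads and most of the decreases with 4-OI. Their summed CPM was 6533, 6400 and 6349 in vehicle, 5420, 5173 and 5307 with 4-OI, 5807, 5844 and 6008 with hemin and 5626, 5576 and 5627 in Irg1KO, with no overlap with vehicle. All 20 tested Hnrnp genes had a negative value with 4-OI, as did 6114 of all 12148 genes. Of the 20, 18 fell with 4-OI, 9 with hemin and 11 in Irg1KO, against 25.0%, 7.74% and 16.3% of all genes. The decreases called with 4-OI ran from −0.13 to −0.67. Hnrnph3 and Hnrnpl did not pass, at −0.20 (SE 0.10, edgeR adjusted p = 0.10) and −0.11 (SE 0.05, edgeR adjusted p = 0.069). Both passed on FPKM, Hnrnph3 also without vehicle library 3, and Hnrnpl also with upper-quartile factors and without 4-OI library 3. Some of these genes have near-identical processed copies, and the expected counts of Hnrnpa3, Hnrnpk and Hnrnpm were not whole in any of the 12 libraries, as arises when reads fit more than 1 gene, so the values of these 3 are less certain. The counts of Hnrnpa1 were whole in 6 of the 12.

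Hnrnpd (AUF1), which binds AU-rich elements and promotes decay of cytokine mRNAs, changed most of the Hnrnp genes with 4-OI and in Irg1KO. It was at 157.3, 166.8 and 161.1 CPM in vehicle, 97.11, 100.04 and 108.19 CPM with 4-OI, 136.3, 143.6 and 148.6 CPM with hemin and 120.8, 115.8 and 118.4 CPM in Irg1KO. All 3 groups lay below vehicle without overlap, by 0.67 (log2, SE 0.05, edgeR adjusted p = 5.1e-14), 0.18 (SE 0.05, edgeR adjusted p = 0.0092) and 0.45 (SE 0.05, edgeR adjusted p = 1.0e-09). The hemin call ended without vehicle library 2 or hemin library 1. Hnrnpa2b1, a reader of RNA sorting motifs and a nuclear sensor of viral DNA, was at 781.5, 707.4 and 675.4 CPM in vehicle, 594.7, 510.2 and 528.4 CPM with 4-OI, 579.8, 595.1 and 566.8 CPM with hemin and 584.8, 602.4 and 574.7 CPM in Irg1KO. It differed by −0.41, −0.31 and −0.30 (SE 0.05 each), the largest hemin decrease in the family, with edgeR adjusted p of 7.7e-08, 4.2e-05 and 2.4e-05.

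Hnrnpa3 differed by −0.43 (SE 0.05) with 4-OI and by −0.19 (SE 0.05, edgeR adjusted p = 0.0058) with hemin, the latter not called without vehicle library 3. Hnrnph2 differed by −0.24 (SE 0.06, edgeR adjusted p = 0.0023) with hemin. In Irg1KO, Hnrnph1 and Hnrnpdl followed Hnrnpd. Hnrnph1, which binds G-rich elements, was at 262.4, 235.1 and 232.1 CPM in vehicle, 217.6, 213.8 and 216.3 CPM with 4-OI, 242.0, 226.4 and 252.1 CPM with hemin and 181.4, 185.7 and 183.4 CPM in Irg1KO. Its Irg1KO difference was −0.41 (SE 0.05, edgeR adjusted p = 1.5e-08), and that of Hnrnpdl was −0.41 (SE 0.06, edgeR adjusted p = 1.1e-06). The most abundant hnRNP genes by FPKM in vehicle were Hnrnpf (330 ± 5.74, SD, n = 3) and Hnrnpa1 (321 ± 8.91, SD, n = 3). Hnrnpf differed by −0.28, −0.16 and −0.27 (SE 0.05 each) with 4-OI, with hemin and in Irg1KO, the hemin call ending without vehicle library 1 or hemin library 1. Hnrnpa1 differed by −0.34 (SE 0.05) with 4-OI and −0.20 (SE 0.05) in Irg1KO, and was at −0.12 (SE 0.05, edgeR adjusted p = 0.085) with hemin.

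The 4-OI and hemin groups were also compared directly, although their hours differ (15 h and 12 h). Of the 63 members, 26 were lower and 3 higher with 4-OI than with hemin, against 21.7% and 20.6% of all genes, with a median of −0.12. Hnrnpd (−0.49, SE 0.05, edgeR adjusted p = 4.1e-10), Srsf3 (−0.45, SE 0.05, edgeR adjusted p = 1.5e-09) and Srsf7 (−0.36, SE 0.06) were lower with 4-OI. So were Hnrnpul1 (−0.29, SE 0.05), Sf3a3 (−0.34, SE 0.06), Sf3a1 (−0.28, SE 0.06), Snrpd1 (−0.29, SE 0.08), Srsf2 (−0.27, SE 0.05), Hnrnpa3 (−0.24, SE 0.05) and Prpf19 (−0.24, SE 0.05). Srsf11 was higher with 4-OI (0.23, SE 0.06, edgeR adjusted p = 0.0033), as were Sf3b3 (0.18, SE 0.05) and Prpf4b (0.16, SE 0.06), the last 2 not on FPKM. Prpf4b was also not called with upper-quartile factors, nor without 4-OI library 1 or 2 or hemin library 2 or 3. Snrpg was at −0.39 (SE 0.13, edgeR adjusted p = 0.018) with overlapping groups, and its call ended without 4-OI library 2 or 3 or hemin library 3. Sf3b5, Snrpc and Prpf31, at −0.22, −0.19 and −0.15, each lost the call without hemin library 2 or 3. Sf3b5 also lost it without 4-OI library 1 or 3 and with DESeq2, and Snrpc without 4-OI library 1. Prpf31 also lost it without 4-OI library 2 or 3, with RLE factors and with DESeq2.

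Splicing genes outside the 6 families were taken from 6 lists, of which 133 genes were tested. With 4-OI, 50 fell and 18 rose, with hemin 10 fell and 5 rose, and in Irg1KO 39 fell and 5 rose. The shares of all genes were 25.0% lower and 25.4% higher with 4-OI, 7.74% and 9.48% with hemin, and 16.3% and 23.5% in Irg1KO. The hemin decreases thus made up a share close to that of all genes. Among U1, U5, tri-snRNP and LSm proteins, 14 of 23 fell and 2 rose with 4-OI, with a median of −0.21. Ppih, a tri-snRNP cyclophilin, and Lsm3, a U6 ring protein, differed by −0.66 (SE 0.09) and −0.62 (SE 0.09). Lsm6 differed by −0.45 (SE 0.09) and Snrnp70, the U1 70K protein, by −0.22 (SE 0.05) in Irg1KO. The SR-related proteins and SR kinases had a median of 0.07 with 4-OI, where 8 of 23 rose and 3 fell. Luc7l and Scaf8 rose by 0.44 (log2, SE 0.07) and 0.34 (SE 0.06) with 4-OI, and Scaf1 by 0.26 (SE 0.06) with hemin and 0.24 (SE 0.06) in Irg1KO.

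Among 31 other splicing regulators, 18 fell and 3 rose with 4-OI, against 25.0% and 25.4% of all genes. Celf2 differed by −0.58 (SE 0.05) with 4-OI. Rbfox2, a regulator of tissue-specific exons, was at 13.3 ± 2.38 CPM in vehicle and 50.4 ± 2.25 CPM in Irg1KO (SD, n = 3), a rise of 1.96 (log2, SE 0.10, edgeR adjusted p = 3.3e-17), beside the stromal markers given below. Of 15 U2 and branch-site factors, 6 fell and 1 rose with 4-OI and 5 fell in Irg1KO, where 16.3% of all genes fell. Ddx46, the U2 helicase PRP5, was at −0.32 (SE 0.05) with 4-OI and −0.25 (SE 0.05) in Irg1KO. Of 25 Prp19 complex and catalytic step factors, 5 fell and 2 rose with 4-OI, both shares below those of all genes. In Irg1KO 6 of them fell, against 16.3% of all genes. Dhx8, a helicase that releases the spliced mRNA, rose by 0.24 (log2, SE 0.05) with 4-OI, but not on FPKM. Of 16 snRNP assembly genes, 4 fell with 4-OI, the same share as in all genes, and 2 rose, a share below that of all genes. With hemin 3 rose, against 9.48% of all genes, and in Irg1KO 1 fell, a share below the 16.3% of all genes. Smn1, the core of the SMN complex that loads Sm rings, rose by 0.29 (log2, SE 0.08, edgeR adjusted p = 0.0082) with hemin. That call was lost without vehicle library 2 or hemin library 3. Smn1 was also the gene that fell in Irg1KO, at −0.20 (SE 0.08, edgeR adjusted p = 0.045), a call lost in 8 of 16 alternatives. Gemin2, the partner of Smn1, differed by −0.55 (SE 0.14) with 4-OI.

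The files also give a length per gene and library, which differs between libraries for genes with several transcripts, as a mean weighted by isoform does, and which could be tested for 42 members (limma on log2 length, over 9172 genes). Prpf39 was shorter in Irg1KO, at 4629, 4714 and 4756 nucleotides against 5055, 5021 and 5020 in vehicle, 4967, 4964 and 5091 with 4-OI and 4958, 4925 and 4943 with hemin. The difference was −0.10 on the log2 scale (SE 0.01, limma adjusted p = 0.015); 0.414% of all genes were called in that comparison, and the call was lost without Irg1KO library 2 or vehicle library 1 or 3. For 4-OI, hemin and 4-OI against hemin, limma called 0 members, against 0.894%, 0.00% and 0.382% of all genes, and 2, 0 and 4 of the 42 had an unadjusted p under 0.05. The same held for 9.99%, 5.92% and 9.89% of all genes, so these 3 shares of the members lay below the background. In Irg1KO, 5 of the 42 did, against 8.22% of all genes. A mean length does not name the exons used, and no splicing event was measured.

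Markers of other cells and of division moved with the groups. All 20 mitosis genes listed were lower with 4-OI, where they summed to 949 to 1008 CPM against 2329 to 2392 in vehicle. They summed to 1923 to 2190 CPM with hemin (10 of 20 lower) and to 1893 to 1966 CPM in Irg1KO (20 of 20 lower). Of 10 fibroblast and stromal markers, all 8 tested were higher in Irg1KO, at 11369 to 12741 CPM against 1909 to 2341 in vehicle, 2178 to 2421 with 4-OI and 1757 to 2292 with hemin, although Dcn and Lum were under 1 CPM in every library. Neutrophil markers summed to 340 to 362 CPM with 4-OI against 84.9 to 96.4 in vehicle, 97.3 to 107 with hemin and 44.1 to 49.0 in Irg1KO. Mmp8 alone made up 294 to 326 CPM of that with 4-OI and 76.0 to 85.6 CPM in vehicle. Of 6 tested, 2 were higher with 4-OI, and 2 were higher and 3 lower in Irg1KO, with Mpo, Elane and Prtn3 under 1 CPM in every library. B cell markers summed to 16.7 to 18.8 CPM in Irg1KO and to 4.17 to 7.44 CPM elsewhere, with Cd79a or Ms4a1 at 0 in each group. Ebf1 alone made up 15.6 to 17.7 CPM of the Irg1KO sum. T cell and dendritic cell markers stayed under 6 CPM. The part of these cells or of division in the differences above was not tested. When the 1400 genes at least 2-fold higher in Irg1KO were left out of the fit, 23 members were lower in Irg1KO in place of 29.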

How the data were processed

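RNA of 12 macrophage libraries, 3 in each of 4 groups, was sequenced. The authors deposited, per the file headers, an expected count, an FPKM value and a length per gene and library; the submitters' processing notes name HISAT2, StringTie, Bowtie2 and RSEM and the builds GRCm39 and mm39, without versions or roles. The deposited FPKM values divide by the library total and by a length mostly shorter than the deposited one. Genes not listed in a file counted as 0, and 0 columns could not be mapped.

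Expected counts were rounded and tested with edgeR 4.0.16 (R 4.3.3; filterByExpr, TMM factors, robust quasi-likelihood fit of all 12 libraries, Benjamini-Hochberg over 12148 genes, threshold 0.05), and the biological coefficient of variation was 4.71%. Differences are log2 and CPM are TMM-scaled; SE is the absolute difference over the square root of F. Length was tested with limma 3.58.1 on log2 values of genes whose length varied. Alternatives were RLE and upper-quartile factors, DESeq2 1.42.0, limma on log2(FPKM + 1) and log2(FPKM + 0.1), no filter, 10 counts in 6 libraries, only the groups compared, a replicate block, and each library left out. Scripts were tested on simulated data.

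Replicates of a group differed by more than counting noise, so no library was counted as a copy. Counting error adds to the spread of genes of few counts, such as Snrpg with 119 to 456 counts a library. With 4-OI, Snrpg had the widest coefficient of variation of the members, at 21.8%. The part of counting error in it was not tested. Named genes are, per comparison and family, up to 3 called members with the highest and 3 with the lowest change, given 5 CPM or more on average over the libraries compared, the 2 of highest FPKM in vehicle, members the filter left out, and called lengths; for other splicing genes, up to 2 called per list with the smallest adjusted p, of which some are given. A gene named in 1 comparison is also given in others. Srsf10, Hnrnph3, Hnrnpl and Snrpd2 fall outside the rule and were chosen after their values were seen. The members and lists were chosen with earlier results of these data known. Coordinates on GRCm38.p6 belong to RefSeq sequences only, not to the files' build. A result of another splicing regulator is not reported here.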

Additional observations from a re-analysis of the deposited data

How the results depend on the processing

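No comparison changed the direction of its median under any alternative, and the named and called genes kept their sign in all of them. Of the called decreases, 30 of the 33 decreases with 4-OI, 5 of the 16 with hemin, 21 of the 29 in Irg1KO and 16 of the 26 against hemin passed the threshold in every alternative, leaving out each library included, and of the increases 0 of 5, 0 of 2 and 1 of 3 (Srsf11, against hemin) did; the cause of the losses was not tested. On log2(FPKM + 1) and log2(FPKM + 0.1), 0 members were higher with 4-OI (48 lower), 0 with hemin (23 lower) and 1 against hemin (36 lower). Against hemin, 28.7% and 29.0% of all genes were lower on these scales, and 14.2% and 14.5% were higher. The medians were −0.31 and −0.33 for 4-OI, −0.12 and −0.12 for hemin, and −0.20 and −0.21 for 4-OI against hemin. Medians of all genes were also below 0, at −0.11 and −0.14, −0.05 and −0.07, and −0.05 and −0.07, in the same order. Fitting only the groups compared left 10 decreases with hemin. Without the genes at least 2-fold higher in Irg1KO, an alternative chosen after seeing the data, 23 decreases were left in Irg1KO and the median was −0.079. Rescaled to TPM, summed log2 ratios to vehicle were −0.33 (Sf3a), −0.15 (Sf3b) and −0.245 (Prpf) with 4-OI and −0.070 (Sf3b) and −0.10 (Prpf) with hemin.

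Leaving out 1 library gave 3 to 6 members higher with 4-OI, the 3 without vehicle library 3. For hemin it gave 0 to 2 higher, 0 without hemin library 2 and 1 without vehicle library 1 or 3, and 8 to 14 lower, 8 without vehicle library 1 and 9 and 10 without hemin library 1 and 2. The hemin median ranged from −0.10 to −0.0502 and that of Irg1KO from −0.15 to −0.12. Decreases against hemin ranged from 17, without hemin library 3, to 27. Length calls ranged from 0 to 1 with 4-OI, in Irg1KO and for 4-OI against hemin; Hnrnpdl was the 1 call with 4-OI, without 4-OI library 3, and was named after its value was seen.

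Replicate numbers showed no sign of pairing. The deviations of libraries with the same number correlated at −0.08 to 0.07 over 18 pairs, and of those with different numbers at −0.06 to 0.12 over 36. Such weak values cannot tell whether animals or days were shared. With the replicate number as a block, 34 members fell with 4-OI, 18 with hemin, 29 in Irg1KO and 28 against hemin.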
